A study of Homo sapiens with 16 samples.

Results

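The aminoacyl-tRNA synthetases, the enzymes that load amino acids onto transfer RNAs, were examined with 2 scaffold proteins of their complex in DU145, an established line of human prostate cancer cells. The 38 genes were a list of symbols, taken as the rows of the deposited counts whose Ensembl identifiers carry those symbols: 20 genes of cytosolic enzymes, 16 of mitochondrial enzymes and the scaffolds AIMP1 and AIMP2, among 64792 identifiers in all. All 38 were found and 35 passed the filter on low counts. VARS1, VARS2 and SARS2 had 0 counts in each of the 16 libraries and were not tested; their expression cannot be judged from these counts. The aspartate enzymes and the mitochondrial glutamine-charging proteins were not on the list and are not analysed here as members.

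Polyadenylated RNA was sequenced in 16 libraries, as single-end reads of 75 bp made with a kit that keeps the strand. The 4 groups of 4 replicates were DU145 cells kept as control, given lactate, given I-BET762, or given lactate and I-BET762 together. I-BET762 is a small molecule that occupies the bromodomains of BET proteins, readers of acetylated histones. No group carried another allele or agent per the labels, which state neither dose nor duration, call the replicates independent, and give the 4 samples with both treatments line numbers other than the DU145 of their titles; the titles were followed.

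A synthetase recognises its amino acid and joins it to the matching transfer RNA, the pairing on which the genetic code rests. Class I and class II enzymes differ in the fold of the catalytic domain. Cytosolic and mitochondrial enzymes are nearly all products of separate nuclear genes, but GARS1 and KARS1 supply both compartments from a single gene, and these were grouped with the cytosolic enzymes. Several cytosolic enzymes are held in the multisynthetase complex, for which AIMP1, AIMP2 and EEF1E1 act as scaffolds. Many cytosolic synthetase genes are known targets of ATF4, the transcription factor of the amino acid response, which binds C/EBP-ATF response elements.

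Total counts were 10711859 to 17173584 per library, lowest in lactate replicate 1. HEXIM1, which BET inhibitors are known to induce, was at 75.7, 135, 70.0 and 77.4 CPM (counts scaled to library size) in control replicates 1 to 4 and at 149, 89.6, 113 and 114 CPM in I-BET762 replicates 1 to 4. By this gene the library labelled control replicate 2 went against its label, and so did the one labelled I-BET762 replicate 2. All labels were kept as given, and directions drawn from those groups rest on them. The epithelial markers of the line had a summed level of 2745 to 4505 CPM over the libraries, and PTPRC, which marks leukocytes, reached at most 0.07 CPM. CPM use TMM-scaled library sizes, and a gene was called at an adjusted p under 0.05 in 1 edgeR model of all 16 libraries.

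Scaled to exon length, the cytosolic enzymes were the more abundant set, with a median over the 19 tested genes of 46.4 CPM per kb against 5.77 CPM per kb for the 14 mitochondrial genes (of means over all 16 libraries). TARS1 and AARS1, the threonyl and alanyl enzymes, led with control levels of 185 ± 16.6 and 169 ± 24.2 CPM per kb (SD, n = 4), a difference within their spread. They were followed by the glycyl enzyme GARS1 at 149 ± 22.9 CPM per kb, also within the spread of AARS1. IARS2, the mitochondrial isoleucyl enzyme, was the exception in its set, at 89.7 ± 3.30 CPM per kb, next to EPRS1 at 98.8 ± 12.7 CPM per kb. The lowest tested genes were CARS1, the cytosolic cysteinyl enzyme, at 0.64 ± 0.12 CPM per kb and PARS2, the mitochondrial prolyl enzyme, at 1.84 ± 0.47 CPM per kb. CARS1 had at most 151 counts in a library. Whether its low level comes from expression or from how reads were counted cannot be judged here. AIMP1 and AIMP2 lay between the sets, at 22.2 ± 1.00 and 28.5 ± 2.56 CPM per kb. Length is the union of annotated exons, so a gene with many long unused exons is understated on this scale.

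The first comparison asked how lactate alone changed the synthetases. Of 35 tested members 11 were lower and 0 higher, where 10.1% of the 14690 tested genes were lower and 13.6% higher (23.7% in either direction). The 11 comprised 10 of 19 cytosolic genes, 1 of 14 mitochondrial genes and 0 of 2 scaffolds, and 16 of the 19 cytosolic genes had a negative log2 fold change. The median log2 fold change was -0.39 for the cytosolic genes and -0.13 for the mitochondrial genes, against 0.03 over all tested genes. Control and lactate libraries did not overlap, with lactate lower, in 9 cytosolic and 4 mitochondrial genes, a pattern held by 9.12% of all tested genes. Whether the cytosolic and mitochondrial sets differ in their response was not tested.

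Markers of other cell types were summed in the same libraries. The 6 leukocyte markers summed to 0.854 to 2.66 CPM in the controls and 2.75 to 3.86 CPM with lactate, with 1 of 2 tested genes higher, and the 7 fibroblast markers to 3.94 to 4.89 and 5.19 to 8.86 CPM, with the 1 tested gene higher. Sums for the 4 endothelial markers were 0.835 to 1.08 and 1.36 to 2.14 CPM, with 0 of 1 tested gene called. These sums were higher in each lactate library than in each control, at low levels, with PTPRC, DCN and CD3E at 0 in all 8 libraries. Of 6 tested epithelial markers 2 were higher, and their sum overlapped between 2745 to 3423 CPM in the controls and 2865 to 4505 CPM with lactate. The part of these differences in the result was not tested.

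**Figure D1:**
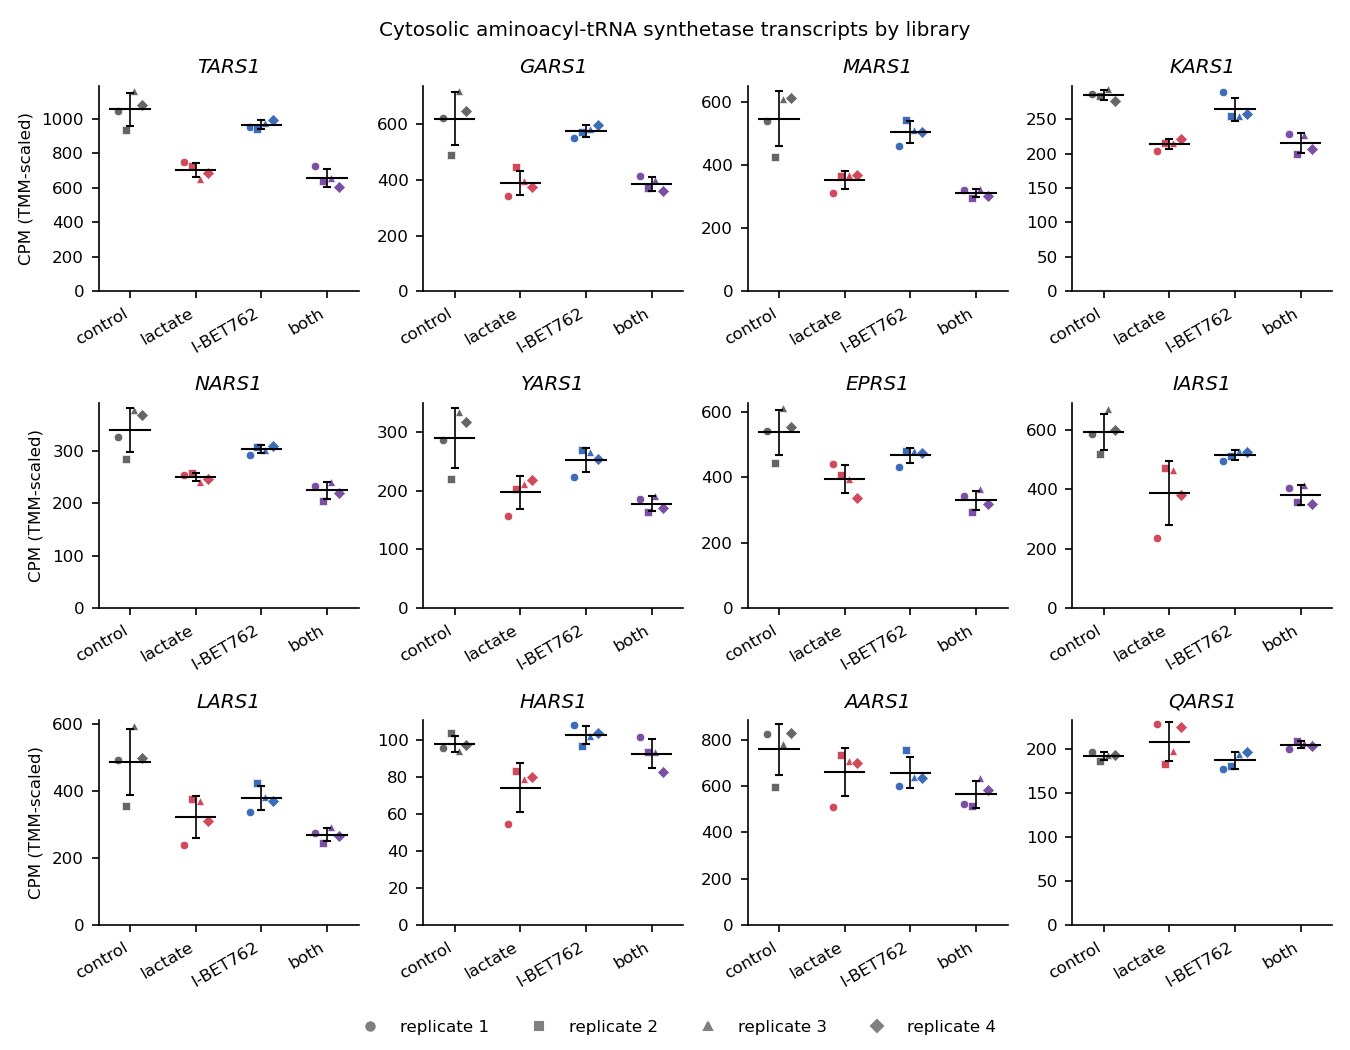
Levels of 12 cytosolic synthetase genes in CPM, with 1 point per library, its replicate number as the shape, and the mean ± SD of each group of 4 as lines. The lactate points of TARS1, from 654 to 748 CPM, lie below all control points, which start at 934 CPM, while those of AARS1 and QARS1 overlap the controls. The AARS1 overlap rests on the library labelled control replicate 2.

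TARS1 (ENSG00000113407, chromosome 5, 33440696 to 33469539, plus strand, GRCh38), the enzyme that charges threonine, had the smallest p of the members. It stood at 1045, 934, 1162 and 1080.3 CPM in control replicates 1 to 4 and at 748, 726, 654 and 686 CPM in lactate replicates 1 to 4. No lactate library reached the lowest control (log2 fold change -0.59, SE 0.09, edgeR adjusted p = 0.000894). GARS1 (ENSG00000106105, chromosome 7, 30594681 to 30634033, plus strand), the glycine enzyme of both compartments, was at 622, 491, 718 and 647 CPM in the controls and at 342, 446, 395 and 375 CPM with lactate. Its groups were also separate, with the lowest control in the library labelled replicate 2 (log2 fold change -0.67, SE 0.11, edgeR adjusted p = 0.00124). KARS1 (ENSG00000065427, chromosome 16, 75627474 to 75648643, minus strand), the lysine enzyme of both compartments and a member of the complex, was at 287, 284, 294 and 277 CPM in the controls and at 204, 216, 216 and 221 CPM with lactate. Its controls lay close together and above every lactate library (log2 fold change -0.41, SE 0.08, edgeR adjusted p = 0.0032). NARS1 (ENSG00000134440, chromosome 18, 57600656 to 57622213, minus strand), the asparagine enzyme, was at 326, 285, 378 and 369 CPM in the controls and at 254, 257, 239.9 and 246 CPM with lactate. The groups did not overlap (log2 fold change -0.44, SE 0.10, edgeR adjusted p = 0.00491). YARS1 (ENSG00000134684, chromosome 1, 32775237 to 32818153, minus strand), the tyrosine enzyme, was at 286, 219, 334 and 317 CPM in the controls and at 157, 203, 211 and 219 CPM with lactate. It too was lower in each lactate library than in each control (log2 fold change -0.55, SE 0.13, edgeR adjusted p = 0.0083).

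Enzymes of the multisynthetase complex contributed 5 of the 10 cytosolic calls. Of the 7 enzyme genes of the complex 5 were lower, with a median of -0.45, and of the 12 tested cytosolic genes outside it 5 were lower, with a median of -0.29; the difference was not tested. MARS1 (ENSG00000166986, chromosome 12, 57475445 to 57517569, plus strand), which charges both initiator and elongator methionine transfer RNAs, was at 541, 426, 610.1 and 613 CPM in the controls and at 312, 367, 369 and 368 CPM with lactate. Its groups were separate, and lactate replicate 1 was the lowest of the 8 libraries (log2 fold change -0.63, SE 0.11, edgeR adjusted p = 0.00171). EPRS1 (ENSG00000136628, chromosome 1, 219968601 to 220046658, minus strand), which carries the glutamyl and prolyl activities in one chain, was at 542, 445, 612 and 554 CPM in the controls and at 441, 407, 394 and 338 CPM with lactate. Lactate was lower in every library (log2 fold change -0.45, SE 0.11, edgeR adjusted p = 0.0109), with the closest pair at 441 and 445 CPM. IARS1, the isoleucyl enzyme, fell by 0.61 (SE 0.16, adjusted p = 0.0137), from 594 ± 61.2 to 388 ± 109 CPM. The leucyl enzyme LARS1, which also acts as a leucine sensor, fell by 0.59 (SE 0.15, adjusted p = 0.0129), but its libraries ranged over 356 to 594 CPM in the controls and 240.1 to 375 CPM with lactate and overlapped. That overlap rests on the library labelled control replicate 2, at 356 CPM, with the next control at 494 CPM. QARS1 and RARS1, the glutamine and arginine enzymes of the complex, had log2 fold changes of 0.11 and -0.14 and were not called.

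Outside the complex, the histidine enzyme HARS1 was also lower (log2 fold change -0.39, adjusted p = 0.0226), with lactate replicate 1 well below the other lactate libraries at 54.9 CPM. AARS1, at 824, 597, 784 and 827 CPM in the controls and 509, 733, 707 and 701 CPM with lactate, was not called (log2 fold change -0.19, SE 0.14, edgeR adjusted p = 0.295). Its lactate replicates 2 to 4 lay inside the range of the controls. At its lower end that range rests on the library labelled control replicate 2, at 597 CPM. Each lactate library lay below the other controls. The subunits of the phenylalanine enzyme pointed in opposite directions. FARSA, the alpha subunit, was at 73.9, 81.0, 49.5 and 71.8 CPM in the controls and 95.5, 82.9, 84.0 and 87.4 CPM with lactate, each lactate library above each control (log2 fold change 0.34, SE 0.13, edgeR adjusted p = 0.0669). FARSB, the beta subunit, stood at -0.33 (adjusted p = 0.0544), so neither subunit passed. FARSA passed with a replicate block (0.36, adjusted p = 0.022) and without the library labelled control replicate 2 (0.42, adjusted p = 0.0427), and stood at -0.06 with GC content and exon length corrected for. SARS1 (-0.02), WARS1 (-0.17) and TARS3 (-0.25), the serine, tryptophan and second cytosolic threonine enzymes, were not called. CARS1 was at 6.36, 4.93, 6.63 and 7.80 CPM in the controls and 15.4, 3.57, 4.64 and 5.21 CPM with lactate, where replicate 1 stood alone above the controls (log2 fold change 0.13, SE 0.34, edgeR adjusted p = 0.811).

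Trends of relative expression on GC content also differed between the control and lactate libraries. Each gene's log2 CPM was taken as its deviation from that gene's mean over the 16 libraries. Across genes, Spearman's rho of these deviations on GC content averaged -0.40 in the controls and 0.19 with lactate. The median GC content was 46.8% for the cytosolic genes, 50.4% for the mitochondrial genes and 48.1% for all tested genes. Once GC content and exon length were corrected for, 6 members were called instead of 11 (GARS1, KARS1, MARS1, NARS1, TARS1 and YARS1). With the lactate and control libraries fitted alone 3 were called (GARS1, MARS1 and TARS1). Calls over all genes fell as well, from 3486 to 2239 with the correction and to 889 with the groups fitted alone. With the correction, 6 of 35 members stood beside 2239 of 14690 genes, a share in either direction near that of all genes. All 6 were lower, and the direction of the calls over all genes is not given for these settings. The correction moved the median of the cytosolic genes from -0.39 to -0.21 and that of the mitochondrial genes from -0.13 to -0.03, beside 0.07 over all genes. EPRS1 then stood at -0.23 (adjusted p = 0.122), LARS1 at -0.31 (0.117) and HARS1 at -0.16 (0.243). Fitted alone, these groups gave medians of -0.40 and -0.14, and EPRS1 stood at -0.45 (0.0912), LARS1 at -0.59 (0.086) and HARS1 at -0.40 (0.119). LARS1 also missed the threshold without control replicate 3 (-0.48, adjusted p = 0.0535), and HARS1 without the library labelled control replicate 2 (-0.37, adjusted p = 0.0552) or control replicate 4 (-0.38, adjusted p = 0.0574). GARS1, MARS1 and TARS1 were called in all 18 alternatives run, in this comparison and in the next.

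Promoter windows of the cytosolic genes are shown because the genes that fell together include several with the core of a C/EBP-ATF response element, the sequence that ATF4 is known to bind. RefSeq windows of 250 bases before to 50 after each start (GRCh38.p14) were matched for 32 of the 38 members, not for LARS1, YARS1, TARS3, VARS1, VARS2 and AARS2. The letters searched were TGATGNAA, on both strands, and a gene counted if any of its windows held them. They were found in 7 of 16 cytosolic genes (43.75%), in 1 of 14 mitochondrial genes and in 0 of 2 scaffolds, against 4.46% of 27305 genes. Those 27305 are all genes with a window, whether or not they were expressed here. Fragments of up to 80 bases are printed 5′ to 3′ on the strand of the gene, with the core in capitals.
TARS1, chr5:33440927-33440978, plus strand: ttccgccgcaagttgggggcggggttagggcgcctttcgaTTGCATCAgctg
GARS1, chr7:30594805-30594877, plus strand: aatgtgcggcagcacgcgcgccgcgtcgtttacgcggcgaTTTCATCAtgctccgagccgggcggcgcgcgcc
MARS1, chr12:57488024-57488075, plus strand: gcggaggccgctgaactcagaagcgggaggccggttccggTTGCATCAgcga
NARS1, chr18:57621811-57621862, minus strand: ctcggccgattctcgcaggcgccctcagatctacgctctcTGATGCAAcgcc
IARS1, chr9:92293698-92293750, minus strand: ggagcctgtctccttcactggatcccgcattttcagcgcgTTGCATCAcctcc
AARS1, chr16:70289654-70289733, minus strand: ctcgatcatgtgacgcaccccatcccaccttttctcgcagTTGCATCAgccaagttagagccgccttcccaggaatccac
CARS1, chr11:3057414-3057465, minus strand: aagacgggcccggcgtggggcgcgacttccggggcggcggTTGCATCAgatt
YARS2, chr12:32756055-32756134, minus strand: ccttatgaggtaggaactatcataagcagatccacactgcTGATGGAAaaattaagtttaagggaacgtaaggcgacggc
In TARS1, NARS1, MARS1, CARS1 and IARS1 the first base of the core lay within 15 bases of the annotated start, at 3, 15, -4, -2 and -13, in GARS1 at -33, and in AARS1 at -187 (negative values are upstream). TARS1, MARS1, IARS1, AARS1 and CARS1 share the same 8 letters, which read as the motif on the opposite strand, and NARS1 has them on its own strand. Of these 7 cytosolic genes 5 were lower with lactate (median log2 fold change -0.59), all but AARS1 and CARS1. Of the 9 cytosolic genes whose windows lacked the letters 3 were lower (EPRS1, HARS1 and KARS1; median -0.17). YARS2, the single mitochondrial gene with the letters, had a log2 fold change of -0.13. The letters are a description of these windows and do not show that a factor was bound. Whether genes with and without the letters differ in their response was not tested. The E-box CACGTG, searched for comparison, was in 1 of 16 cytosolic and 3 of 14 mitochondrial genes, against 8.78% of genes.

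Among the mitochondrial enzymes, MARS2 (ENSG00000247626, chromosome 2, 197705369 to 197708387, plus strand), the methionine enzyme, was called. It was at 7.44, 13.2, 8.67 and 9.22 CPM in the controls and 3.36, 5.91, 7.47 and 7.15 CPM with lactate. The groups overlapped, the library labelled control replicate 2 was the highest control, and lactate replicate 1 was the lowest of the 8 libraries (log2 fold change -0.67, SE 0.23, edgeR adjusted p = 0.0444). With both libraries that HEXIM1 set against their labels left out, MARS2 stood at -0.48 (adjusted p = 0.114) and was not called. CARS2, the cysteine enzyme, was at 25.4, 29.7, 25.5 and 30.2 CPM in the controls and 20.7, 21.7, 22.8 and 25.0 CPM with lactate. The lactate libraries were all lower, the closest pair being nearly level, and the gene was not called (log2 fold change -0.29, SE 0.11, edgeR adjusted p = 0.0656). LARS2, the leucine enzyme, was at 33.0, 35.2, 34.3 and 35.9 CPM in the controls and 12.5, 29.6, 32.1 and 23.7 CPM with lactate. Its controls sat in a narrow band above the lactate libraries, which spread widely (log2 fold change -0.49, SE 0.20, edgeR adjusted p = 0.0772). LARS2 passed without lactate replicate 2 (-0.59, adjusted p = 0.0413), without lactate replicate 3 (-0.65, adjusted p = 0.0282) and with a replicate block (-0.53, adjusted p = 0.0422). HARS2, the histidine enzyme, pointed the other way, at 21.5, 21.3, 17.5 and 17.9 CPM in the controls and 26.9, 21.4, 21.3 and 22.4 CPM with lactate. The groups overlapped and it was not called (log2 fold change 0.23, SE 0.13, edgeR adjusted p = 0.178). For the other 10 tested mitochondrial genes there were log2 fold changes between -0.29 and 0.26 and none was called.

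The scaffolds did not pass the test under lactate. AIMP1 was at 69.1, 75.2, 76.6 and 75.0 CPM in the controls and 128, 51.8, 53.7 and 69.4 CPM with lactate (log2 fold change 0.03, SE 0.20, edgeR adjusted p = 0.933). Lactate replicate 1 was the one lactate library above the controls, and without it AIMP1 stood at -0.35 (adjusted p = 0.0147). AIMP2 was at 52.2, 54.9, 46.0 and 56.7 CPM in the controls and 80.8, 38.6, 40.5 and 60.2 CPM with lactate, on both sides of the controls (log2 fold change 0.07, SE 0.17, edgeR adjusted p = 0.806), and stood at -0.18 without lactate replicate 1.

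**Figure D2:**
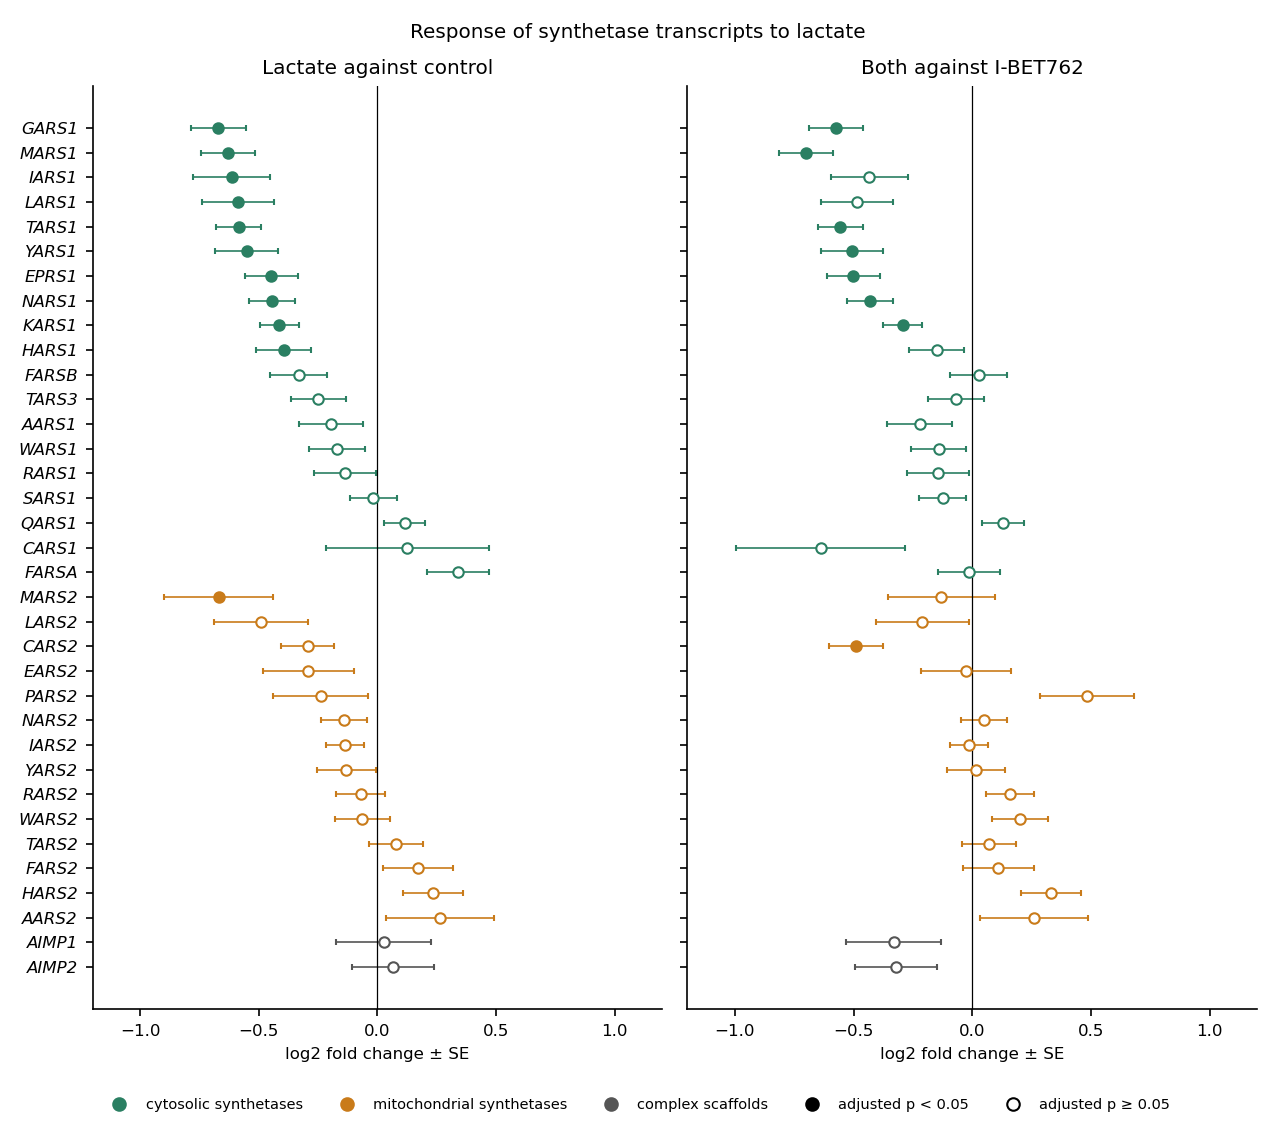
Log2 fold changes ± SE of the 35 tested members on the horizontal axes, lactate against control on the left and both treatments against I-BET762 on the right, with filled points for an adjusted p under 0.05. Cytosolic genes lie mostly left of 0 in both comparisons, with medians of -0.39 and -0.29, and mitochondrial genes lie around 0, with medians of -0.13 and 0.06.

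The second comparison asked for the lactate difference in cells that also had the inhibitor, and it shares no library with the first. Of 35 members 8 were lower and 0 higher, where 1.57% of all tested genes were lower and 3.34% higher (4.9% in either direction). The 8 were 7 cytosolic genes (median over 19 genes -0.29) and the mitochondrial CARS2 (median over 14 genes 0.06), beside a median of 0.00 over all tested genes. The libraries did not overlap, with both treatments lower, in 11 cytosolic genes, 1 mitochondrial gene and both scaffolds, as in 11.3% of all tested genes. TARS1, GARS1, MARS1, KARS1, NARS1, YARS1 and EPRS1 were lower in both comparisons, which is 63.6% of the 11 members called first and 87.5% of the 8 called here. The same overlap was not computed over all tested genes, so these shares do not set the synthetases apart from other genes.

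MARS1 led, at 461, 545, 512 and 507 CPM in I-BET762 replicates 1 to 4 and 322, 297, 323 and 302 CPM in replicates 1 to 4 with both treatments. The groups were separate and the level 1.63-fold lower (log2 fold change -0.70, SE 0.11, edgeR adjusted p = 0.00186). TARS1 was at 955, 939, 975 and 995 CPM with I-BET762, in a narrow band, and at 728, 639, 656 and 606 CPM with both (log2 fold change -0.56, SE 0.09, edgeR adjusted p = 0.00295). GARS1, the glycine enzyme, was at 549, 572, 583 and 597 CPM with I-BET762 and at 415, 371, 398 and 361 CPM with both (log2 fold change -0.58, SE 0.11, edgeR adjusted p = 0.00898). For each of these genes every library with both treatments lay below every library with I-BET762 alone. NARS1, at 292, 308, 302 and 308 CPM with I-BET762 and 232, 205, 241 and 220.0 CPM with both, was lower in the same way (-0.43, adjusted p = 0.0158), and EPRS1 went from 467 ± 22.8 to 330.2 ± 29.8 CPM (SD, n = 4 each; -0.50, adjusted p = 0.016). YARS1 (-0.51, adjusted p = 0.0335) and KARS1 (-0.29, adjusted p = 0.0499) completed the cytosolic calls, KARS1 at the edge of the threshold. CARS2, the mitochondrial cysteine enzyme, was at 32.9, 34.3, 31.0 and 27.4 CPM with I-BET762 and 23.3, 21.8, 20.1 and 24.2 CPM with both. Its groups were separate, the highest value with both lying below the lowest with I-BET762 (log2 fold change -0.49, SE 0.11, edgeR adjusted p = 0.0179). LARS1 (-0.49, adjusted p = 0.0766) and IARS1 (-0.43, adjusted p = 0.136) were not called here. AIMP1 (-0.33) and AIMP2 (-0.32) were lower in each library with both treatments than in each with the inhibitor, without passing the test.

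The 7 cytosolic genes with the C/EBP-ATF core printed above held 4 of the 7 cytosolic calls of this comparison (median -0.56). The 9 whose windows lacked it held 2 (median -0.14), a difference that was not tested. The count of 8 was sensitive to single libraries. It was 3 without replicate 2 of both treatments, and 4 without replicate 4 of both treatments or I-BET762 replicate 4. It was 5 without replicate 3 of both treatments, the library labelled I-BET762 replicate 2, or I-BET762 replicate 3. Calls over all genes fell as well in these settings, from 720 to between 285 and 435.

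The third comparison asked what I-BET762 did alone. Of 35 members 0 were called, where 0.442% of all tested genes were (all of them higher). In edgeR 2 members had an unadjusted p under 0.05, beside 1682 of the 14690 tested genes. DESeq2 called 0 members and 542 of all genes. FARSA had the smallest p, at 99.2, 93.2, 78.1 and 82.6 CPM in I-BET762 replicates 1 to 4 (log2 fold change 0.35, SE 0.13, edgeR adjusted p = 0.23), and LARS1 was second (log2 fold change -0.36, SE 0.15, edgeR adjusted p = 0.335). Medians were -0.11 for the cytosolic genes and -0.06 for the mitochondrial genes, beside -0.03 over all tested genes. The I-BET762 and control libraries were separate for 0 of 35 members, where 7.73% of all tested genes were separate with the inhibitor higher and 3.04% with it lower. The library labelled I-BET762 replicate 2 was kept throughout this count. The count of 0 rests on the library labelled control replicate 2. It had the lowest cytosolic mean of the controls, so leaving it out favours separation of cytosolic genes with I-BET762 lower. Without it, a setting added for this count after seeing the data, 10 cytosolic members were separate and lower with I-BET762 (AARS1, CARS1, EPRS1, GARS1, IARS1, LARS1, NARS1, SARS1, TARS1 and YARS1; 8.37% of all tested genes) and FARSA and AARS2 separate and higher (11.3%). The cytosolic median was then -0.20, with the mitochondrial one at -0.03. In that setting 7 members had an unadjusted p under 0.05 (2139 over all genes), while 0 members and 0 of all genes were called. With GC content and exon length corrected for, the cytosolic median was -0.045 and 0 members had an unadjusted p under 0.05 (971 over all genes).

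**Figure D3:**
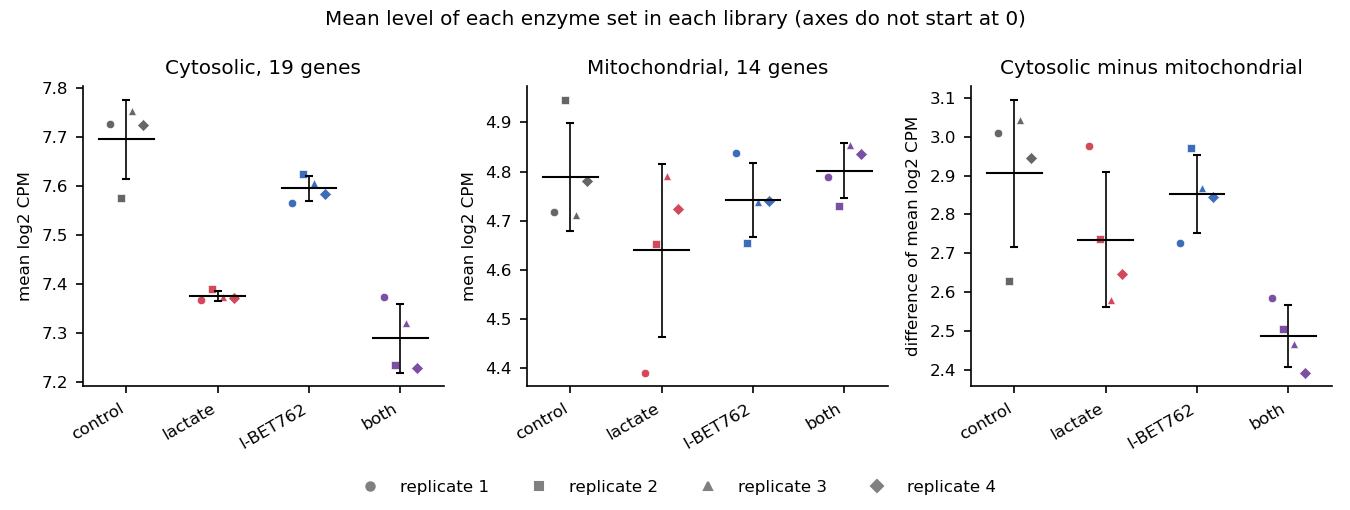
Mean log2 CPM of the 19 tested cytosolic genes, of the 14 tested mitochondrial genes and the difference of these means, with 1 point per library and the mean ± SD of each group of 4 as lines (axes do not start at 0). The cytosolic means lie at 7.37 to 7.39 in the 4 lactate libraries and at 7.58 to 7.75 in the 4 controls.

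Adding I-BET762 to lactate, compared with lactate alone, called 0 of 35 members and 0% of all tested genes. In edgeR 9 members had an unadjusted p under 0.05, beside 2294 of the 14690 tested genes. DESeq2 called 0 members and 103 of all genes. CARS1 had the smallest p, at 4.54, 3.60, 2.89 and 2.94 CPM in replicates 1 to 4 with both treatments (log2 fold change -1.01, SE 0.36, edgeR adjusted p = 0.27), and the lactate group against which it was set holds the high replicate 1. The libraries were separate, with both treatments higher, for FARSB, MARS2, PARS2 and WARS2 (3.82% of all tested genes) and, with both lower, for SARS1 (3.78% of all tested genes). The interaction of the treatments, a test of whether lactate acts differently with the inhibitor, called 0 members and 0% of all genes. In edgeR 2 members had an unadjusted p under 0.05, beside 894 of the 14690 tested genes. DESeq2 called 0 members and 0 of all genes. PARS2 had the smallest p, at 3.18, 5.61, 3.68 and 4.82 CPM in the controls, 3.15, 3.64, 4.08 and 3.65 with lactate, 4.29, 2.64, 4.04 and 3.36 with I-BET762 and 5.36, 4.57, 5.50 and 4.64 with both. Most libraries of the other groups lay within the range of the controls (log2 fold change 0.72, SE 0.28, edgeR adjusted p = 0.7). These are low levels, from at most 80 counts in any library.

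Against control, both treatments together lowered 10 of 35 members and raised 0, where 7.72% of all tested genes were lower and 13% higher (20.7% in either direction). All 10 were cytosolic. The median was -0.43 for the cytosolic genes and -0.04 for the mitochondrial genes, beside -0.01 over all tested genes. The smallest p values were those of TARS1 (-0.68, SE 0.09, adjusted p = 0.000251), MARS1 (-0.81, SE 0.11, adjusted p = 0.000252) and EPRS1 (-0.71, SE 0.11, adjusted p = 0.000631). EPRS1 was at 343, 295, 364 and 319.6 CPM with both treatments, below each control. LARS1 had the lowest log2 fold change of the called members, -0.85, and AARS1, not called with lactate alone, was called here (-0.43, adjusted p = 0.0339) with overlapping libraries. The AARS1 overlap rests on the library labelled control replicate 2, at 597 CPM, with the highest library of both treatments at 636 CPM. The libraries were separate in 14 members with both treatments lower (14.8% of all tested genes) and in 2 with both higher (16.5%). This comparison uses the control libraries of the lactate comparison, so the lists are not independent.

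As a sum, the cytosolic synthetases held 6536 ± 664 CPM in the controls, 4856 ± 273 with lactate, 5891 ± 165 with I-BET762 and 4479 ± 236 with both (SD, n = 4 each). The mitochondrial sum was 733 ± 32.7, 679 ± 23.3, 711 ± 22.6 and 716 ± 22.1 CPM in the same order. IARS2 alone made up 373, 340, 358 and 354 CPM of it, so this sum leans on that gene. The ratio of the sums was 8.95 in the controls, 7.16 with lactate, 8.30 with I-BET762 and 6.26 with both. On the log2 scale, the difference between the set means overlapped between the lactate and control libraries, with the library labelled control replicate 2 low and lactate replicate 1 high. The libraries with both treatments all lay below those with I-BET762 alone. In bulk RNA, fewer transcripts per cell and a changed share of cells cannot be told apart.

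Cytosolic and mitochondrial enzymes for the same amino acid could be set side by side for 11 amino acids. With lactate against control, the cytosolic log2 fold change was the lower of the pair in 9 of 11, with a median difference of -0.30. The exceptions were cysteine, where CARS1, a gene of low counts, stood at 0.13 and CARS2 at -0.29, and methionine, where MARS1 stood at -0.63 and MARS2 at -0.67. With both treatments against I-BET762 it was the lower in 11 of 11, with a median difference of -0.48. Threonine had the widest gap in both comparisons, with TARS2 at 0.08 and 0.07 where TARS1 stood at -0.59 and -0.56. Histidine showed opposite signs under lactate, HARS1 at -0.39 and HARS2 at 0.23. No test was made of the pairs.

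**Figure D4:**
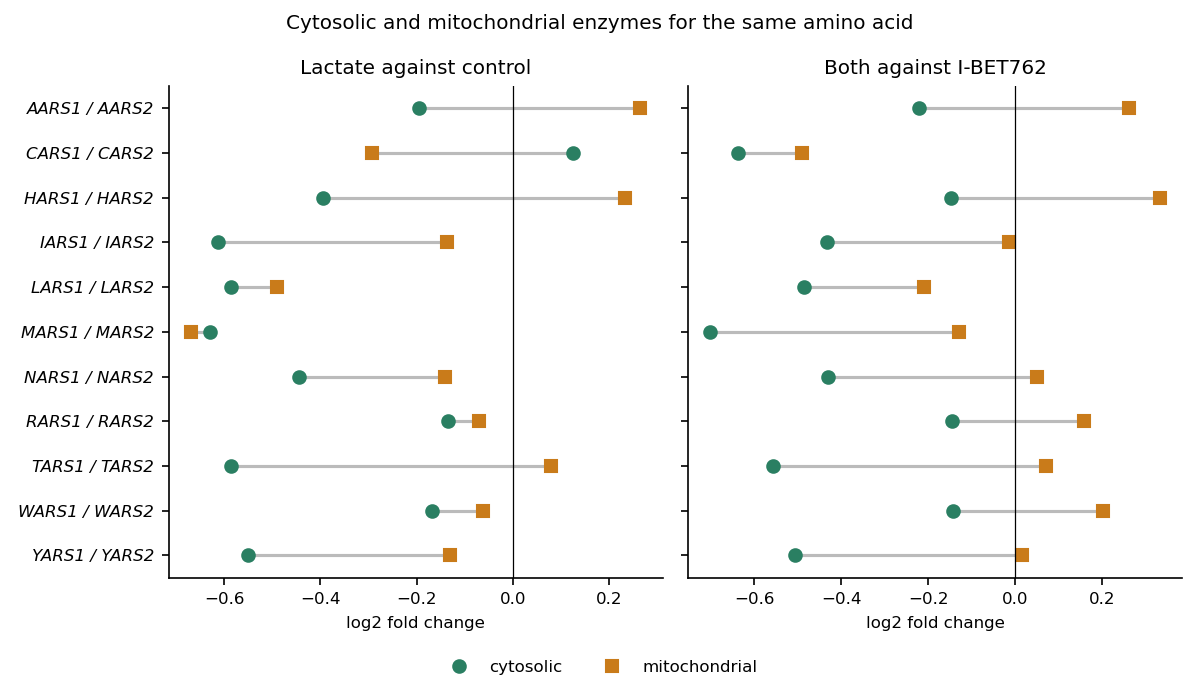
Log2 fold change of the cytosolic enzyme (circles) and of the mitochondrial enzyme (squares) for each of 11 amino acids, in lactate against control and in both treatments against I-BET762. The cytosolic point lies left of the mitochondrial one for 9 of 11 amino acids in lactate against control and for 11 of 11 in both treatments against I-BET762.

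Genes of the amino acid response, the programme that ATF4 drives when amino acids are short, were followed as the wider pathway of the cytosolic synthetases. Of 24 tested genes 7 were lower and 1 higher with lactate (median -0.24), and 11 were lower and 0 higher with both treatments against I-BET762 (median -0.52), read against the percentages of all genes given above. The neutral amino acid transporter SLC1A4 (-1.13, adjusted p = 0.000323), the cystine transporter SLC7A11 (-0.91, adjusted p = 0.00133) and the mitochondrial folate enzyme MTHFD2 (-0.54, adjusted p = 0.00211) fell with lactate. DDIT4, an inhibitor of mTORC1 that also responds to hypoxia, was the gene that rose (0.96, adjusted p = 0.00468). The ATF4 transcript was at 609, 517, 606 and 642 CPM in the controls and 773, 475, 466 and 568 CPM with lactate, where replicate 1 was above every control, and was not called (-0.06, adjusted p = 0.782). ATF4 was called lower in 2 alternatives, at -0.32 (adjusted p = 0.0457) with a replicate block and the correction for GC content and exon length together, and at -0.305 (adjusted p = 0.0238) with lactate replicate 1 and the pair labelled control and I-BET762 replicate 2 left out. ATF4 is controlled largely at translation, so its transcript does not measure its activity. Asparagine synthetase ASNS, a standard ATF4 target, stood at -0.65 (adjusted p = 0.0883) at a low level, 2.49 ± 0.19 CPM in the controls. ASNS passed without lactate replicate 1 (-0.85, adjusted p = 0.0301) and without the 3 libraries just named (-0.87, adjusted p = 0.0451).
Of 17 tested genes of transfer RNA maturation and export, 3 were lower and 1 higher with lactate (median -0.04), where 10.1% of all tested genes were lower and 13.6% higher. The export receptor XPOT (-0.64, adjusted p = 0.00605) and the splicing endonuclease subunit TSEN15 (-0.52, adjusted p = 0.00256) were among those lower, and TSEN15 stood at -0.20 (adjusted p = 0.229) with GC content and exon length corrected for. XPOT had an adjusted p of 0.0581 with the compared groups fitted alone. RPP25, a subunit of RNase P, was higher (0.59).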

How the data were processed

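The values are whole-number counts of reads for each Ensembl identifier in 16 libraries, as deposited by the authors. Per the submitters' processing notes, tools included STAR 2.6.1c and DESeq, and builds named were hg38 and GRCh38.p12. Which program counted the reads, with which annotation and whether by strand, is not given in the sources used here, so counts of overlapping genes and of near-identical copies are uncertain. Symbols, exon length and coordinates are those of GENCODE release 29 and a table of gene names; promoter windows are RefSeq's on GRCh38.p14.

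Genes were kept by edgeR's filterByExpr (minimum count 10, minimum total 15), which left 14690. All 16 libraries entered 1 quasi-likelihood fit on TMM-scaled sizes (edgeR 4.0.16 under R 4.3.3), with 12 residual degrees of freedom. Contrasts were two-sided with Benjamini-Hochberg adjustment over all tested genes at 0.05. The test was checked on simulated data. Total counts of 10711859 to 17173584 set the precision, and counts under about 100, as for CARS1 and PARS2, are the least precise. DESeq2 1.42.0, RLE size factors, no low-count filter, a replicate block, a smooth correction for GC content and exon length, the compared groups fitted alone and libraries left out were the alternatives; the set without 3 libraries, total counts alone and the count of separate members without a control library were chosen after seeing the data. Where nothing beyond the word independent says how replicates were made, p-values measure the spread between these samples.

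The members and lists were chosen with earlier results of these data known. Values per library are given for up to 6 cytosolic and 4 mitochondrial members with the smallest p under lactate, the leading 3 in each comparison of both treatments with I-BET762 or control, the first in the other comparisons, the extremes of level and the scaffolds. From each other list, ATF4, ASNS and up to 3 genes with the smallest p under lactate were named; DDIT4 and RPP25, singled out as the genes that rose, were chosen after their values were seen. Some genes that these rules would name are not reported here.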

Additional observations from a re-analysis of the deposited data

Results flagged for a closer look

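Within groups of 4 libraries, a library far from the other 3 was looked for by Dixon's ratio at its 95% critical value in 20 members and in set means, 96 groups in all, and 9 were found; chance gives about 1 in 20. Lactate replicate 1 accounts for 4 of them. It was the lowest lactate library for AARS1 (509 CPM, the others 701 to 733), HARS1 (54.9 CPM, the others 79.2 to 83.5) and MARS1 (312 CPM, the others 367 to 369), and the highest for CARS1 (15.4 CPM, the others 3.57 to 5.21).

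I-BET762 replicate 1 was the lowest of its group for EPRS1 (433 CPM, the others 475 to 481) and the highest for KARS1 (289.5 CPM, the others 255 to 258). The library labelled I-BET762 replicate 2 was the lowest for MARS2 (6.74 CPM, the others at 10.4 or more), and replicate 2 of both treatments for AIMP1 (51.5 CPM, the others 55.7 to 56.2). The mean log2 CPM of the cytosolic synthetases was lowest in the library labelled control replicate 2, at 7.58 against 7.73 to 7.75 in the other controls.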

How the results depend on the processing

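Of 115 counts of called members under alternatives, 103 stayed within 1.5 times the reported count. These include the comparisons and the interaction with 0 calls, where a 0 that stayed 0 was counted as kept. The share therefore overstates how stable the comparisons with calls were. For lactate against control, 11 members became 6 with GC content and exon length corrected for. They became 7 with that correction and the replicate block together, and 3 with these groups fitted alone. Over all genes, 3486 calls became 2239, 2823 and 889 in the same order. For both treatments against I-BET762, 8 members became 5 with no filter on low counts and 13 with these groups fitted alone. Over all genes, 720 calls became 698 and 2535. For I-BET762 against control, 0 became 3 when 3 libraries were left out together, and calls over all genes went from 65 to 981. This set was chosen after seeing the data: lactate replicate 1 and the pair labelled control and I-BET762 replicate 2. Leaving out 1 library at a time gave 9 to 14 members for lactate against control, 3 to 6 for both against I-BET762, 9 to 12 for both against control, and 0 to 0 for the other comparisons and the interaction. Over all genes, the comparisons with calls gave 1839 to 4950, 285 to 564 and 1704 to 3094 in the same order. I-BET762 against control gave at most 277 over all genes. Without that pair, lactate against control gave 9 (2579 over all genes) and both against I-BET762 gave 6 (469 over all genes). DESeq2 gave 13, 9 and 12 in the comparisons with calls (4225, 1250 and 3572 over all genes). The cause of these differences was not tested.

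With replicate number as a block, 13 members were called for lactate against control, 8 for both against I-BET762, 12 for both against control and 0 for the others. Over all genes, calls for lactate against control went from 3486 to 4244. They went from 720 to 973 for both against I-BET762 and from 3045 to 3549 for both against control. Not every pair of same-numbered libraries deviated together, so the numbers were not treated as pairing. Values of r were -0.26 to 0.42 (mean 0.17, against -0.06 for other pairs) and over 0.1 in 16 of 24 pairs. The lowest, -0.26, was between the libraries labelled control and I-BET762 replicate 2, the pair that stood out by HEXIM1. Of 16 libraries 7 correlated best with their own number.

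Signs turned for 6 named genes under lactate. AIMP1 stood at -0.022 with no filter, -0.026 with the replicate block, and -0.34 without the 3 libraries together, and ranged from -0.35 (without lactate replicate 1) to 0.17 with single libraries left out. AIMP2 stood at -0.093 with the correction for GC content and exon length, -0.10 with the block added and -0.16 without the 3 libraries, and ranged from -0.18 (without lactate replicate 1) to 0.20. FARSA stood at -0.064 with the correction and -0.058 with the block added. CARS1 stood at -0.64 without the 3 libraries, where EEF1A1 stood at -0.027, and ranged from -0.53 (without lactate replicate 1) to 0.35. With single libraries left out ATF4 ranged from -0.24 (without lactate replicate 1) to 0.025 (without lactate replicate 3), and it was called lower at -0.32 with the correction and the block, and at -0.305 without the 3 libraries. Of the other values of named genes, 923 kept direction and side of the threshold, 97 lost the threshold and 14 passed it.

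Depth limits CARS1, PARS2 and MARS2, with at most 151, 80 and 177 counts in a library.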

Other observations

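Other steps of translation were followed with lists written with earlier results known. Of 13 genes of mitochondrial translation, 3 were lower and 0 higher with lactate against control (median log2 fold change -0.18), where 10.1% of all tested genes were lower and 13.6% higher. They were QRSL1 (-0.36, edgeR adjusted p = 0.00956), a subunit of the enzyme that makes mitochondrial glutaminyl-tRNA, the elongation factor GFM1 (-0.48, adjusted p = 0.0129) and the release factor MTRF1 (-0.39, adjusted p = 0.04). With GC content and exon length corrected for, none of the 3 was called. Of 6 tested genes of cytosolic elongation, EEF1A2, which delivers charged transfer RNA to the ribosome, was higher (0.90, adjusted p = 0.000874). EEF1A1 (0.20) and EEF1D (0.74) were not called.

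Among genes whose products act on mischarged transfer RNA, DTD1 (0.53, adjusted p = 0.0891) and DTD2 (-0.19, adjusted p = 0.141), deacylases of D-aminoacyl-tRNA, were not called.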
